A study of Mus musculus with 64 samples.

Results

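Control livers taken in the middle of the dark phase were compared with control livers taken in the middle of the light phase. The comparison set 8 of the 64 libraries of the series against each other: the 4 sh-Ctl livers of ZT18 and the 4 sh-Ctl livers of ZT6, chosen by their labels alone. The spread of each gene was estimated over all 64 libraries. ZT is zeitgeber time, counted in hours from lights on. All 8 came from male C57BL/6J mice with free access to food, and all carried an AAV8 vector with a control hairpin (sh-Ctl), so none was an uninjected liver. Livers were collected 4 weeks after the injection. The matching livers of mice given a hairpin against Acsf3 (sh-Acsf3), 4 at ZT18 and 4 at ZT6, served for comparison. The labels do not say that replicates of a group were separate animals. The p-values therefore measure the spread between samples within the groups of the whole series, which may be technical.

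The liver clock is a loop of transcription factors. BMAL1 (gene Arntl) and CLOCK bind E-box letters and switch on the Per, Cry and Nr1d genes, whose products then hold them back: PER and CRY proteins block the activators, and the REV-ERB receptors made by Nr1d1 and Nr1d2 silence Arntl. Output factors such as DBP bind D-box letters and carry the rhythm to enzymes of the liver. In a nocturnal animal, feeding falls mostly in the dark phase, when glycogen is stored, and body temperature and corticosterone also change with the time of day.

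Messenger ends were counted as unique molecular identifiers (UMIs) per gene by BRB-seq, a pooled 3′ method. The 4 ZT18 libraries held 2371231 to 4267971 UMIs and the 4 ZT6 libraries 3257385 to 6063636, and in each of the 8 libraries 14.4% to 22.0% came from the mitochondrial genome. Levels below are CPM, the UMI counts scaled to a common library size with TMM factors. They are compared between livers within a gene. Because the liver pieces were bulk tissue, fewer cells of a type and less RNA per cell cannot be told apart. Summed levels of 10 hepatocyte markers were 103639 to 147480 CPM at ZT18 and 113638 to 141225 CPM at ZT6, as the tissue label requires. Acsf3 averaged 2.56 ± 1.72 CPM in sh-Acsf3 livers and 11.3 ± 2.61 CPM in sh-Ctl livers (SD, n = 32 each), in the direction of the labels.

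Of the 8 livers, 3 stood apart from their group. Replicate 2 of ZT18 was high in acute-phase genes, with Saa1 at 2259 CPM against 20.0 to 136 CPM in the other ZT18 livers. Replicate 1 of ZT6 was high in MHC class II genes, with H2-Ab1 at 127 CPM against 16.9 to 21.3 CPM in the other ZT6 livers, and its summed macrophage markers were 581 CPM against 256 to 283 CPM. Replicate 3 of ZT6 held 897 CPM of pancreas enzyme transcripts against at most 35.0 CPM in the other 7 livers. Counts are therefore given with and without these 3 libraries.

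Between midnight and midday, 297 of 10097 tested genes changed in sh-Ctl liver, which is 2.94% (edgeR quasi-likelihood test, Benjamini-Hochberg adjusted p under 0.05). Of these, 146 were higher at ZT18 (1.45% of tested genes) and 151 were lower (1.5%). A change of at least 2-fold was fitted for 58 of the higher genes (0.574% of tested genes) and 63 of the lower ones (0.624%). In 239 of the 297 genes the 4 ZT18 livers did not overlap the 4 ZT6 livers, an arrangement that 8.45% of all tested genes showed, 3.97% with ZT18 above and 4.48% with ZT18 below. The median log2 difference over all tested genes was -0.02. Scaling by library size alone moved that median to -0.17 and split the calls into 70 higher and 271 lower, so the balance of directions depends on the scaling. Without the 3 libraries that stand apart, 206 genes passed, with 93 higher and 113 lower, and 154 of them were among the 297. The test borrows its spread from all 64 libraries. With the 8 livers fitted alone, 127 genes passed, with 71 higher and 56 lower, and 114 of them were among the 297.

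Clock genes changed in both directions, with Nr1d1, Nr1d2 and Dbp lower at ZT18 and Cry1, Usp2, Nampt and Wee1 higher. Nr1d1, which encodes the repressor REV-ERBα, was measured at 2.27, 0.295, 0.867 and 0.545 CPM in the ZT18 livers, against 10.3, 22.5, 29.3 and 23.1 CPM in the ZT6 livers. Every ZT18 liver lay far below every ZT6 liver, and replicate 1 was the highest of ZT18 and the lowest of ZT6. Its log2 change was -4.51 ± 0.62 (SE), with an edgeR adjusted p of 2.72e-06, on 10 UMIs at ZT18 and 325 at ZT6. Nr1d1 lies on the minus strand of chromosome 11 from 98767932 to 98775333 (GRCm38) and overlaps Thra on the other strand, and whether the counting used strand is not given in the sources used here. Its relative Nr1d2 had 20.9, 9.44, 13.0 and 20.7 CPM at ZT18 against 28.7, 27.5, 25.5 and 34.9 CPM at ZT6. The groups did not overlap, but the fall was smaller than that of Nr1d1, at -0.87 ± 0.24 (log2, SE; edgeR adjusted p = 0.026). Leaving out any one of ZT18 replicate 2, ZT18 replicate 3, ZT6 replicate 1 and ZT6 replicate 4 took the adjusted p of Nr1d2 to 0.0567 to 0.126.

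Cry1, a repressor of CLOCK and BMAL1, moved the other way. It had 12.3, 15.9, 9.54 and 18.8 CPM in the ZT18 livers, against 1.91, 3.05, 1.59 and 6.07 CPM in the ZT6 livers, with no overlap. The log2 change was 2.26 ± 0.31 (SE; edgeR adjusted p = 1.24e-06), and the gene lies on the minus strand of chromosome 10 from 85131700 to 85185064 (GRCm38). Its RefSeq promoter window, from 250 bases before the annotated start to 50 after it, is shown because among the 6 called clock genes with a window it was the only one to hold the E-box letters CACGTG. The window is chr10:85185005-85185304 (GRCm38.p6, minus strand), with the E-box in capitals, which begins 60 bases before the start.
Cry1: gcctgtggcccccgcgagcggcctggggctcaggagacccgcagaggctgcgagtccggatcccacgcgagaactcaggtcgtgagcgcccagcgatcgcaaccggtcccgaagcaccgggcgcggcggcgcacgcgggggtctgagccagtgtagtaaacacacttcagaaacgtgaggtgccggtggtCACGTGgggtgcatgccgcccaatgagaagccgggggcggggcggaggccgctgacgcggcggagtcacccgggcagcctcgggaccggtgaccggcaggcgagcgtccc
CACGTG was also present in a window of 15.2% of the 112 higher genes with a window, 13.9% of 122 lower genes and 12.1% of 8007 tested genes. The letters were not found in these windows of Nr1d1, Nr1d2, Dbp, Usp2 and Nampt, which says nothing about sites elsewhere in those genes.

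Arntl, which encodes the activator BMAL1, had 6.37, 13.3, 4.34 and 8.72 CPM at ZT18 against 3.95, 2.78, 2.87 and 6.07 CPM at ZT6. Its groups overlapped, and the log2 difference of 1.11 ± 0.36 (SE) did not pass (edgeR adjusted p = 0.0745). Arntl did pass as higher in 3 of 19 other settings. Clock, Rora and Npas2 did not pass either, with adjusted p from 0.593 to 0.85.

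Among the 9 tested repressors, Cry1 was higher and Nr1d1 and Nr1d2 were lower (33.3% called, against 2.94% of all tested genes). The other 6 did not pass. Per2 was the nearest of those 6. It had 24.1, 30.7, 20.4 and 15.8 CPM at ZT18 against 16.3, 11.7, 2.55 and 3.64 CPM at ZT6, where 2 livers were high and 2 low. Its log2 difference was 1.29 ± 0.41 (SE; edgeR adjusted p = 0.0692). Per2 did pass as higher in 4 of 19 other settings, among them limma-voom. Per1, Per3, Cry2, Ciart and Bhlhe40 had adjusted p between 0.255 and 0.889. Bhlhe40 held 1 high liver in each group, 130 CPM in replicate 3 of ZT18 and 95.4 CPM in replicate 1 of ZT6.

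Clock output factors were split in the same way. Of 10 tested, Usp2, Nampt and Wee1 were higher at ZT18 and Dbp was lower (40% called, against 2.94% of all tested genes). Usp2, which encodes a deubiquitinating enzyme, had 51.9, 31.3, 42.9 and 61.6 CPM at ZT18 against 12.5, 16.7, 9.24 and 12.1 CPM at ZT6. All ZT18 livers were well above all ZT6 livers (log2 change 1.88 ± 0.28, SE; edgeR adjusted p = 1.02e-05). Dbp, a PAR bZIP activator, had 16.4, 15.0, 17.8 and 18.0 CPM at ZT18 against 53.2, 88.3, 47.8 and 58.0 CPM at ZT6. The ZT18 livers were tightly grouped and the ZT6 livers were all higher and more spread (log2 change -1.88 ± 0.37, SE; edgeR adjusted p = 0.00107). Dbp overlaps Sphk2 on the other strand of chromosome 7.

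Nampt, the rate-limiting enzyme of NAD salvage, had 79.6, 67.0, 97.1 and 88.2 CPM at ZT18 against 68.5, 41.1, 32.8 and 42.2 CPM at ZT6, so replicate 1 of ZT6 reached into the ZT18 range. Its log2 change was 0.83 ± 0.19 (SE; edgeR adjusted p = 0.00451). Wee1, a kinase that delays mitosis, had 13.6, 14.5, 11.3 and 13.1 CPM at ZT18 against 8.44, 8.89, 5.10 and 5.47 CPM at ZT6. The groups did not overlap (0.88 ± 0.23, SE; edgeR adjusted p = 0.0189), but the call ended without ZT18 replicate 1 or 4 or ZT6 replicate 3 or 4, at adjusted p of 0.0511 to 0.0787. Nampt and Wee1 also missed the threshold under library size scaling alone, at adjusted p of 0.0784 and 0.0783. The PAR bZIP genes Tef and Hlf and the repressor of D-box genes Nfil3 did not pass, with adjusted p of 0.473, 0.219 and 0.0503. Nfil3, with a log2 estimate of 1.03, did pass as higher in 10 of 19 other settings, among them RLE scaling, DESeq2 and limma-voom.

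**Figure D1:**
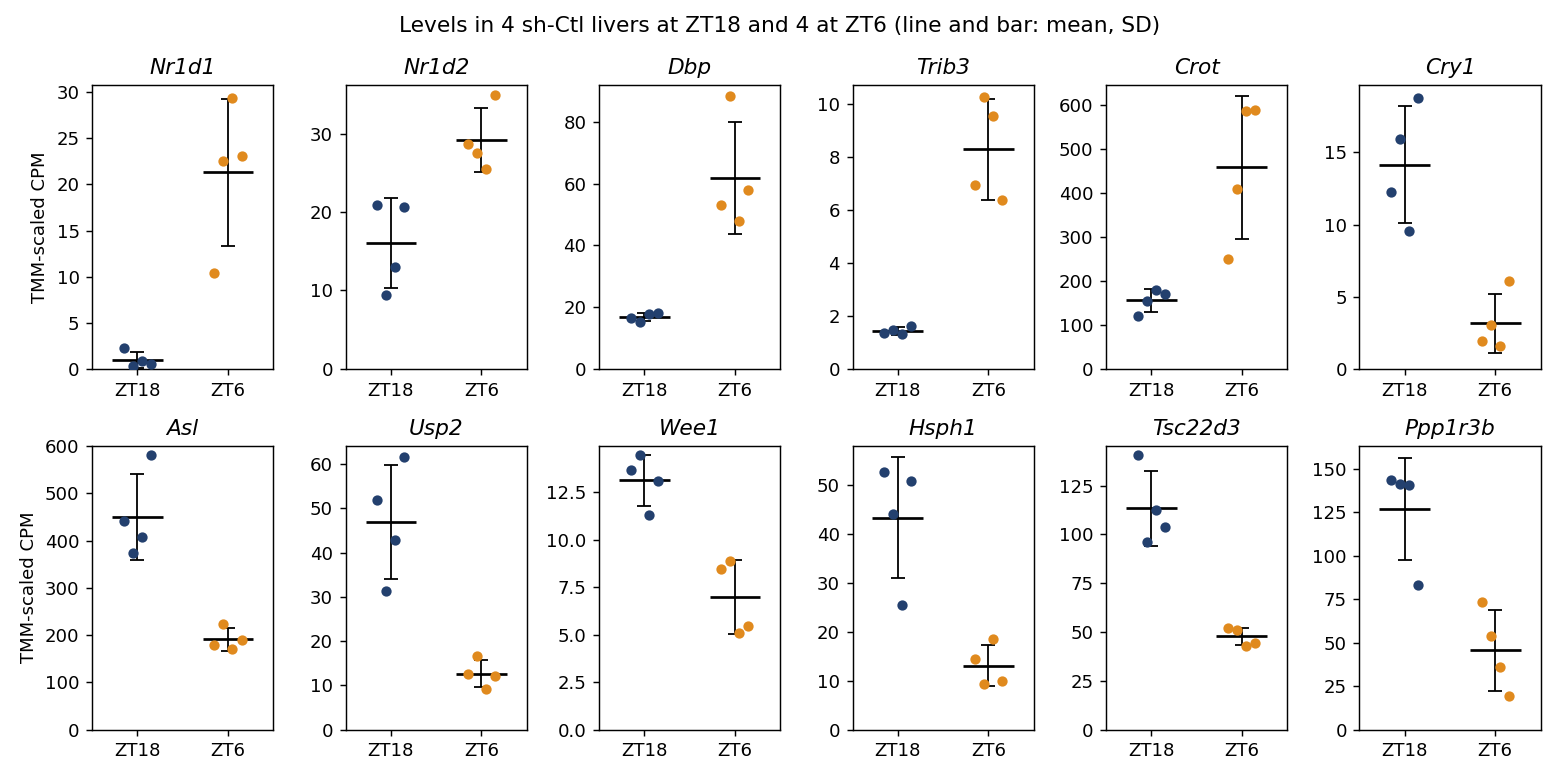
TMM-scaled CPM of 12 genes in single sh-Ctl livers at ZT18 (left) and ZT6 (right), with the mean as a line and the SD as a bar (4 livers each). Nr1d1, Nr1d2, Dbp, Trib3 and Crot are lower in every ZT18 liver, and the other 7 genes are higher in every ZT18 liver.

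The other 6 times of the same series place these differences in the day. In sh-Ctl liver Nr1d1 was highest at ZT9 (36.5 ± 15.9 CPM) and lowest at ZT21 (0.669 ± 0.259 CPM), and Dbp was highest at ZT9 (188 ± 28.1 CPM) and lowest at ZT0 (4.53 ± 1.12 CPM; SD, n = 4 each). ZT6 lay before the highest level of both genes. Usp2 was highest at ZT12, at 111 ± 16.3 CPM, and Wee1 at ZT12, at 19.9 ± 5.53 CPM (SD, n = 4 each). Cry1 was highest at ZT21, at 16.3 ± 3.71 CPM, and lowest at ZT9, at 2.37 ± 0.598 CPM (SD, n = 4 each). Arntl ran from 0.593 ± 0.424 CPM at ZT9 to 16.2 ± 6.2 CPM at ZT21 (SD, n = 4 each), so ZT6 and ZT18 both lay between its extremes.

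**Figure D2:**
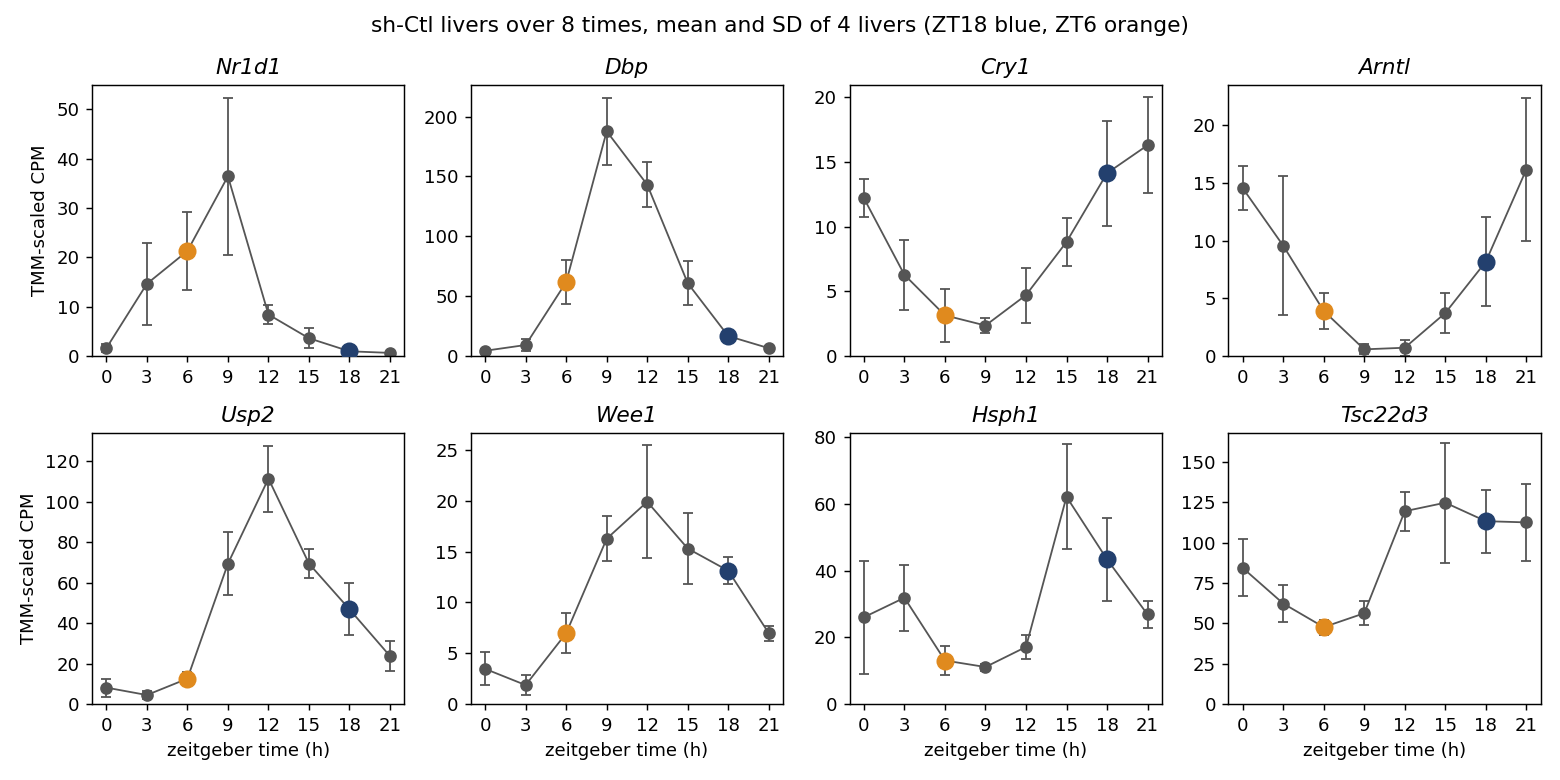
Mean TMM-scaled CPM with SD (4 sh-Ctl livers per time) over 8 zeitgeber times for 8 genes, with ZT18 in blue and ZT6 in orange. Nr1d1 and Dbp are highest at ZT9, Usp2 and Wee1 at ZT12, Hsph1 and Tsc22d3 at ZT15, and Cry1 and Arntl at ZT21.

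The same view was taken of all 297 genes. Of the 146 genes higher at ZT18, 65 had their highest mean over the 8 times at ZT18, 55 at ZT15, 13 at ZT21 and 7 at ZT12, and the remaining 6 at ZT0. Of the 151 lower genes, 83 were highest at ZT6, 37 at ZT9, 17 at ZT0 and 9 at ZT3. Levels at ZT18 and ZT6 chose these genes, so the counts describe them and are no test. The median log2 ratio of the highest to the lowest time was 1.04 for the higher genes and 1.09 for the lower genes, against 0.54 for the 9800 genes not called. The 32 sh-Acsf3 livers took no part in these calls, although they shared the estimate of the spread. In them the highest time lay within 3 h of that in sh-Ctl for 135 of the 146 higher genes (92.5%) and 125 of the 151 lower genes (82.8%), against 56.8% of the genes not called.

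**Figure D3:**
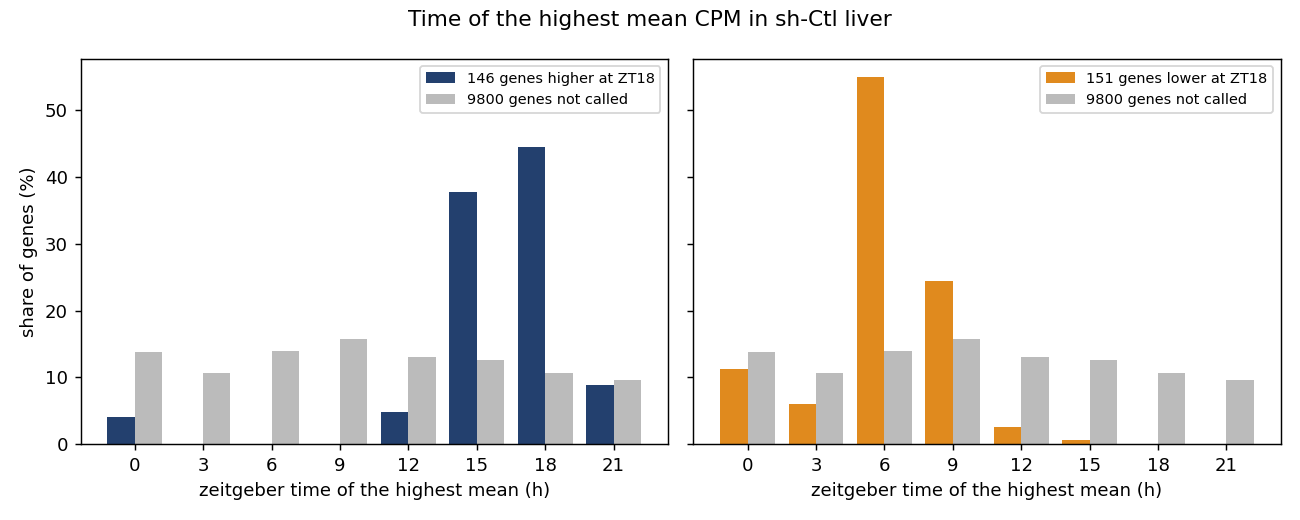
Share of genes (%) by the zeitgeber time of their highest mean CPM in sh-Ctl liver, for 146 genes higher at ZT18 (left) and 151 lower (right), each beside the 9800 genes not called in grey. The higher genes gather at ZT15 and ZT18 and the lower genes at ZT6 and ZT9.

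The heat shock list, which holds cytosolic chaperones, had the most calls by number. Heat shock proteins of the HSP70, HSP90 and HSP110 families fold other proteins, and the co-chaperones BAG3, FKBP4 and CHORDC1 work with them. Of 22 tested members of the heat shock list, 8 rose at ZT18, none fell, and 14 did not pass. The share called was 36.4%, against 2.94% of all tested genes. In the smaller list of clock output factors it was 40%. The median log2 difference of the list was 0.79, against -0.02 over all tested genes, and 18 of the 22 estimates were above 0. The 4 estimates below 0 were Cirbp and Rbm3, which encode cold-inducible RNA-binding proteins, Hspa4 and Hsf1, and none of these passed.

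Hsph1, which encodes HSP110, had 52.8, 44.2, 25.6 and 50.9 CPM at ZT18 against 14.4, 9.44, 18.5 and 10.0 CPM at ZT6. Replicate 3 was the lowest liver of ZT18 and the highest of ZT6, and the groups still did not overlap (log2 change 1.73 ± 0.41, SE; edgeR adjusted p = 0.00807). Fkbp4 had 146, 124, 98.4 and 123 CPM at ZT18 against 56.8, 82.7, 81.9 and 67.1 CPM at ZT6, again apart (0.77 ± 0.14; edgeR adjusted p = 0.000188). Hspa4l had 24.1, 34.8, 14.7 and 27.0 CPM at ZT18 against 15.2, 9.44, 12.1 and 11.8 CPM at ZT6, with replicate 3 of ZT18 inside the ZT6 range (1.04 ± 0.22; edgeR adjusted p = 0.00223).

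These 3 genes passed in every setting tried. The other 5 did not: Bag3 (1.20 ± 0.31), Hsp90aa1 (1.03 ± 0.30), Hspa8 (0.90 ± 0.26), Chordc1 (0.76 ± 0.22) and Hsp90ab1 (0.56 ± 0.16; log2, SE) had edgeR adjusted p between 0.0171 and 0.038. The count of 8 dropped to 3 without ZT18 replicate 1, to 4 without ZT18 replicate 4, and to 3 without ZT6 replicate 2 or ZT6 replicate 4. It was 4 under library size scaling alone and 10 without the 3 libraries that stand apart. With no filter on low counts 14 members passed as higher and 1 as lower. The median of the list stayed between 0.64 and 1.07 over all settings. The stress-inducible Hspa1b had 55.5, 5.90, 22.5 and 36.8 CPM at ZT18 against 14.6, 6.11, 10.8 and 5.47 CPM at ZT6, which overlapped, and its difference did not pass (1.62 ± 0.55; edgeR adjusted p = 0.0994). Hspa1b and Hspa1a are near-identical copies, so their counts may be split between them.

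**Figure D4:**
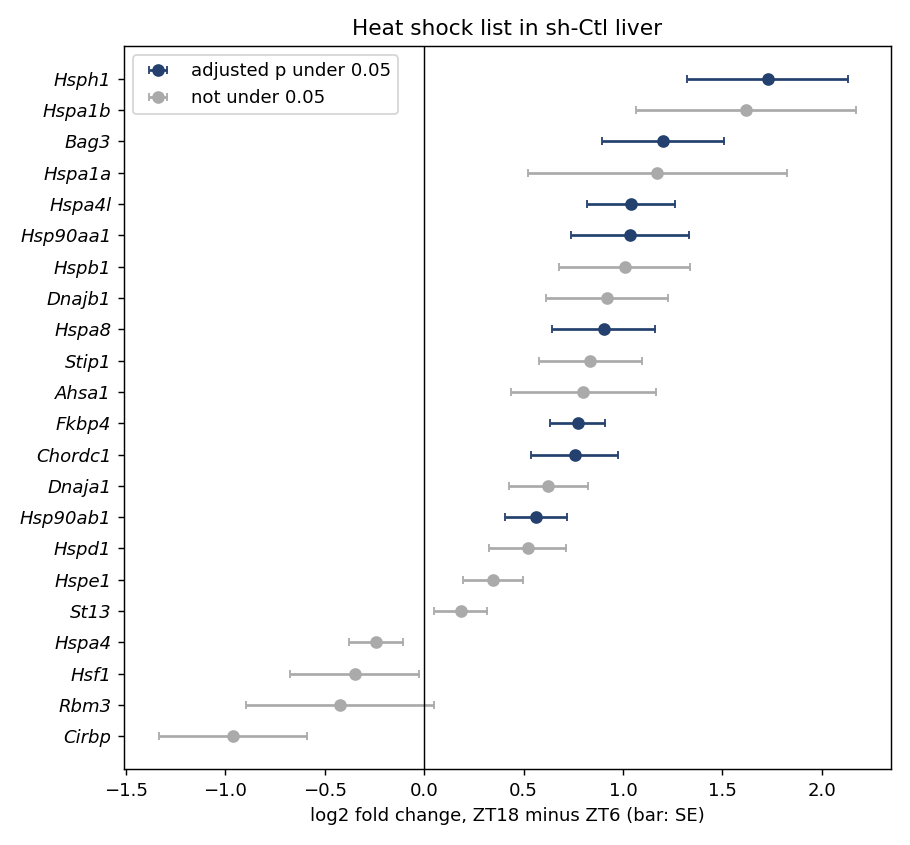
Log2 fold change of ZT18 minus ZT6 (bar: SE) in sh-Ctl liver for the 22 tested members of the heat shock list, ordered by estimate. The 8 members past the threshold, in blue, lie between 0.56 and 1.73, and 4 members have estimates below 0.

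The heat shock element is a run of inverted GAA units, searched here as GAA, 2 bases of any kind, TTC, 2 bases of any kind and GAA, and its reverse complement, so that both strands were covered. This motif was added after the values had been seen. It was present in a window of 4 of 16 heat shock list members (25%), 4 of 112 higher genes (3.57%), 0 of 122 lower genes and 47 of 8007 tested genes (0.587%). The 4 higher genes were Hsph1, Chordc1, Dnajb6 and Ahcy. Only Hsph1 and Chordc1 are in both sets of 4, so the other list members with the motif were not called. The windows of Hsph1 (chr5:149636287-149636586, minus strand) and Chordc1 (chr9:18292017-18292316, plus strand; both GRCm38.p6) are shown because both genes are called members of the list, with matches in capitals. In Hsph1 the match begins 36 bases after the start, and in Chordc1 3 matches overlap across the start.
Hsph1: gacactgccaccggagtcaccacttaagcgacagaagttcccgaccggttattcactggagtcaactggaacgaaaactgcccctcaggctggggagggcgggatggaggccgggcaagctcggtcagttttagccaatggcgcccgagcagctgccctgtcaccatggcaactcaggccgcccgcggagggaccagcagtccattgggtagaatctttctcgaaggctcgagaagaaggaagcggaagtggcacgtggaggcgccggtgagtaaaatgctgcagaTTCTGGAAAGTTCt
Chordc1: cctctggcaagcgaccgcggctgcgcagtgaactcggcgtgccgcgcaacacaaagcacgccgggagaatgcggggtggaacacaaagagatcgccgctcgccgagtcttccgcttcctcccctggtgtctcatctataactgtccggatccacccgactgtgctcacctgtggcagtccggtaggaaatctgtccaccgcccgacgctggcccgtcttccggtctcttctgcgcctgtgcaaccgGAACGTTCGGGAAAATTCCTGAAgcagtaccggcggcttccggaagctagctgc
A match describes the letters only, and no binding was measured. Chordc1 had 27.8, 24.2, 24.3 and 29.4 CPM at ZT18 against 19.2, 11.7, 16.3 and 14.6 CPM at ZT6, without overlap.

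D-box letters, TTATGTAA or its reverse complement TTACATAA, were looked for in the same windows. They were present in 6 of 112 higher genes (5.36%), 2 of 122 lower genes (1.64%) and 62 of 8007 tested genes (0.774%). The 6 higher genes were Gde1, Wnt5b, Gm19522, Slc16a12, Prnp and Baz1b, and the 2 lower genes were Rabggtb and Rhbdd3. None of the 8 was named by the rule for genes, and they were picked for this motif. The windows of Gde1 (chr7:118705689-118705988, minus strand), Wnt5b (chr6:119467162-119467461, minus strand, the second of 3 windows) and Slc16a12 (chr19:34747279-34747578, minus strand; all GRCm38.p6) are shown for their matches, in capitals, which begin 173, 119 and 76 bases before the start.
Gde1: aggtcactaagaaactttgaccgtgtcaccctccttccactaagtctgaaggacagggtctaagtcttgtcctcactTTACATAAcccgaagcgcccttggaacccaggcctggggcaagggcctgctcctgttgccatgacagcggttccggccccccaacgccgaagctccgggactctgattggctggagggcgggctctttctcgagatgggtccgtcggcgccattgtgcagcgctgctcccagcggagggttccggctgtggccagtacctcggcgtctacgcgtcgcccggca
Wnt5b: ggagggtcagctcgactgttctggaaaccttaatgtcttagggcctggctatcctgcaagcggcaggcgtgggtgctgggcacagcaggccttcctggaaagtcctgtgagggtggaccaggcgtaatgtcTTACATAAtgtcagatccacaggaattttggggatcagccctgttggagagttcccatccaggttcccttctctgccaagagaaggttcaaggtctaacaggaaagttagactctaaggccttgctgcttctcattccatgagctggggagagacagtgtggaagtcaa
Slc16a12: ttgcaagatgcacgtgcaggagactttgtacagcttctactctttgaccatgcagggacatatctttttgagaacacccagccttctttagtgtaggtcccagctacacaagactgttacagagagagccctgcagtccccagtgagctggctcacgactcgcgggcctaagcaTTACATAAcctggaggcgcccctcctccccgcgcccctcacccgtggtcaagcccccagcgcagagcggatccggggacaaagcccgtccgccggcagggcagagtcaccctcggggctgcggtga
Gde1, which encodes a glycerophosphodiester phosphodiesterase, had 139, 108, 126 and 157 CPM at ZT18 against 43.6, 48.0, 86.1 and 60.1 CPM at ZT6. The groups were apart (log2 change 1.17 ± 0.16, SE; edgeR adjusted p = 7.64e-07), and it passed in every setting. Wnt5b, a secreted signalling protein, had 9.55, 13.0, 7.81 and 10.1 CPM at ZT18 against 2.18, 3.89, 3.82 and 1.52 CPM at ZT6 and also passed in every setting (1.87 ± 0.31; edgeR adjusted p = 6.53e-05). Slc16a12, a transporter of the monocarboxylate family, had 34.6, 38.6, 42.5 and 52.0 CPM at ZT18 against 27.6, 24.7, 22.0 and 28.2 CPM at ZT6 (0.71 ± 0.16; edgeR adjusted p = 0.00507). Its call ended in 3 of 19 other settings, among them without ZT18 replicate 4, at an adjusted p of 0.067. Prnp and Baz1b each lost their call in 8 of 19 other settings and Rhbdd3 in 2 of 19, while Gm19522 and Rabggtb kept theirs. Letters of the ROR element were in no window of a higher gene and in that of 1 lower gene, Retreg1 (0.82% of 122), against 0.412% of tested genes.

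Of 21 tested genes of the glucocorticoid list, 2 rose and none fell (list median 0.26). The 2 calls were 9.52% of the list, against 2.94% of all tested genes. Tsc22d3, which encodes GILZ, had 141, 96.2, 113 and 104 CPM at ZT18 against 52.1, 51.1, 43.0 and 44.6 CPM at ZT6. Fkbp5, a co-chaperone of the glucocorticoid receptor, had 35.9, 18.3, 26.0 and 33.8 CPM at ZT18 against 14.7, 12.2, 10.8 and 10.9 CPM at ZT6. In both genes the ZT18 livers were all above the ZT6 livers (log2 change 1.24 ± 0.22 and 1.20 ± 0.25, SE; edgeR adjusted p = 0.000351 and 0.00223). Per1, itself a target of the receptor, did not pass (0.62 ± 0.51; edgeR adjusted p = 0.588), nor did Tat, with 771 to 840 CPM at ZT18 against 377 to 545 CPM at ZT6 (0.81 ± 0.31; edgeR adjusted p = 0.156).

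Of 16 tested genes of glycogen storage and breakdown, 2 rose, both on the storage side, and none fell. The share called was 12.5%, against 2.94% of all tested genes. The list median was -0.17. Gys2, the liver form of glycogen synthase, had 299, 178, 200 and 297 CPM at ZT18 against 101, 115, 91.2 and 174 CPM at ZT6. Replicate 4 of ZT6 came close to the lowest ZT18 liver, without overlap (1.02 ± 0.19; edgeR adjusted p = 0.000462). Ppp1r3b, which brings protein phosphatase to glycogen, had 143, 141, 140 and 83.1 CPM at ZT18 against 73.4, 53.6, 36.0 and 19.1 CPM at ZT6 (1.45 ± 0.35; edgeR adjusted p = 0.0104). Its replicate 4 was the lowest liver in both groups, and without ZT6 replicate 4 the change was 1.21 with an adjusted p of 0.0681. With the 8 livers fitted alone, Gys2 and Ppp1r3b kept their log2 changes, at 1.02 and 1.46, and had adjusted p of 0.0603 and 0.166.

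Of 41 tested genes of amino acid breakdown, 1 rose and 4 fell, and the list median was 0.00. The share called was 12.2%, against 2.94% of all tested genes. Amdhd1, which works in histidine breakdown, had 59.1, 89.7, 87.6 and 92.9 CPM at ZT18 against 130, 204, 163 and 195 CPM at ZT6 (-1.06 ± 0.15; edgeR adjusted p = 3.17e-06). Amt, a part of the glycine cleavage system, had 7.73, 16.8, 17.3 and 9.26 CPM at ZT18 against 27.4, 33.0, 30.6 and 30.4 CPM at ZT6 (-1.24 ± 0.20; edgeR adjusted p = 3.85e-05). The ZT18 livers were below every ZT6 liver in both genes. Cbs, the entry enzyme of transsulfuration, also fell (-0.92 ± 0.20; edgeR adjusted p = 0.00233), and these 3 passed in every setting. Hal, which starts histidine breakdown, averaged 208 CPM at ZT18 and 333 CPM at ZT6 (-0.68 ± 0.19; edgeR adjusted p = 0.0326), but its call ended without any one of ZT18 replicates 1, 3 and 4 or ZT6 replicates 2 and 4, at adjusted p up to 0.155.

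In the urea cycle list, 1 of 11 tested genes rose (9.09%, against 2.94% of all tested genes called). Asl, which splits argininosuccinate into arginine and fumarate, had 442, 373, 407 and 580 CPM at ZT18 against 179, 224, 170 and 189 CPM at ZT6. The lowest ZT18 liver was well above the highest ZT6 liver (1.24 ± 0.16; edgeR adjusted p = 5.37e-07). Genes of polyamine synthesis, which draws on ornithine, were also among the 12 largest rises. Odc1, which starts that pathway from ornithine, had 20.5, 15.6, 20.8 and 21.2 CPM at ZT18 against 7.35, 7.22, 10.2 and 5.77 CPM at ZT6 (1.35 ± 0.25; edgeR adjusted p = 0.000278). Srm, spermidine synthase, had 37.3, 25.1, 27.8 and 24.8 CPM at ZT18 against 12.5, 11.1, 10.2 and 11.2 CPM at ZT6 (1.32 ± 0.29; edgeR adjusted p = 0.00362). Neither gene overlapped between groups, which the rule for the 12 largest rises requires. No polyamine list was used, and Odc1 and Srm do not stand for the whole pathway.

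Of 31 tested xenobiotic and haem genes, 4 rose and none fell, with a list median of 0.11. The share called was 12.9%, against 2.94% of all tested genes. Fmo5, a flavin monooxygenase, had 653, 578, 719 and 829 CPM at ZT18 against 281, 300, 277 and 305 CPM at ZT6 (1.26 ± 0.15; edgeR adjusted p = 9.31e-08). Por, the reductase that supplies electrons to cytochromes P450, had 129, 95.6, 127 and 199 CPM at ZT18 against 39.8, 67.2, 62.8 and 55.9 CPM at ZT6 (1.30 ± 0.24; edgeR adjusted p = 0.000396). Both were apart and passed in every setting. Sult1d1 (0.94 ± 0.21) and the P450 gene Cyp2a5 (1.20 ± 0.30) had edgeR adjusted p of 0.00415 and 0.0166, and both missed the threshold without the 3 libraries that stand apart, which left 2 of the 4. Summed levels of 13 pericentral hepatocyte markers were 4555 to 4720 CPM at ZT18 and 3259 to 4385 CPM at ZT6 (exact permutation test, two-sided p = 0.0286, the smallest that 4 against 4 allows, and 0.343 adjusted over 12 marker sums). Their part in the rise of these enzymes was not tested.

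Other large rises, by the rule of the 12 largest among genes of at least 10 CPM without overlap, were Nat8f5, Tsku, H1f2 and Tspan4. Nat8f5, of an acetyltransferase family with near-identical members, had 71.9, 101, 81.5 and 79.0 CPM at ZT18 against 26.1, 17.5, 16.9 and 9.11 CPM at ZT6 (2.22 ± 0.36; edgeR adjusted p = 7.48e-05). It overlaps Nat8f6 on the same strand, so its counts are uncertain. Tsku, a secreted protein, had 61.4, 42.5, 49.9 and 35.1 CPM at ZT18 against 24.9, 9.44, 12.7 and 5.16 CPM at ZT6 (1.76 ± 0.34; edgeR adjusted p = 0.000756). The linker histone gene H1f2 and the tetraspanin gene Tspan4 changed by 1.39 ± 0.31 and 1.33 ± 0.21 (edgeR adjusted p = 0.0052 and 3.67e-05).

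Besides Nr1d1 and Dbp, the 12 largest falls, chosen by the matching rule, held Crot, Flcn and Abcg8. Crot, a peroxisomal carnitine acyltransferase, had 119, 154, 180 and 169 CPM at ZT18 against 249, 410, 585 and 588 CPM at ZT6 (-1.55 ± 0.27; edgeR adjusted p = 0.000192). Flcn, folliculin, acts in amino acid sensing by mTORC1, and had 5.46, 5.90, 7.81 and 8.72 CPM at ZT18 against 18.1, 19.2, 12.4 and 27.6 CPM at ZT6 (-1.45 ± 0.26; edgeR adjusted p = 0.000182). Abcg8, a subunit of a sterol exporter, had 10.5, 20.9, 21.2 and 12.5 CPM at ZT18 against 31.7, 47.5, 40.5 and 49.2 CPM at ZT6 (-1.36 ± 0.22; edgeR adjusted p = 5.53e-05). As the rule requires, all ZT18 livers were below all ZT6 livers in each, and each passed in every setting. Abcg8 and its partner Abcg5 overlap on opposite strands.

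Tns2, a tensin of focal adhesions, was even at ZT18, with 13.6, 13.6, 13.9 and 14.2 CPM, against 32.8, 36.4, 25.8 and 43.7 CPM at ZT6 (-1.32 ± 0.18; edgeR adjusted p = 7.52e-07). Casp6, a caspase, and Ppfibp1, a liprin, fell by 1.27 ± 0.22 and 1.26 ± 0.19 on the log2 scale (edgeR adjusted p = 0.000169 and 1.02e-05). Junb, Arrdc3 and Clec2h fell by 1.33 to 2.12 and each lost its call in at least 1 setting that left out a library. Rgs16, a regulator of G protein signalling, had 1.36, 0, 0 and 1.36 CPM at ZT18 against 52.8, 15.8, 5.42 and 12.8 CPM at ZT6, where replicate 1 was far above the rest. On 8 UMIs against 504 its fitted change was -4.98 ± 0.94 (edgeR adjusted p = 0.000677), and limma-voom gave an adjusted p of 0.056.

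In the list of gluconeogenesis and fasting genes, 1 of 22 tested genes rose and 2 fell, with a median of -0.27. The share called was 13.6%, against 2.94% of all tested genes. Trib3, a pseudokinase induced by amino acid shortage, had 1.36, 1.47, 1.30 and 1.63 CPM at ZT18 against 6.94, 10.3, 9.56 and 6.38 CPM at ZT6 (-2.45 ± 0.43; edgeR adjusted p = 0.000178). Ppargc1b, a coactivator of mitochondrial genes, fell by 1.06 ± 0.25, and Gpt2, an alanine aminotransferase, rose by 0.62 ± 0.15 on the log2 scale (edgeR adjusted p = 0.00826 and 0.00715). Gpt2 missed the threshold without ZT6 replicate 4, at an adjusted p of 0.074.

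Several pathways held no call in this contrast by edgeR. None of 25 cholesterol synthesis genes, 78 ribosomal protein genes, 46 ribosome biogenesis genes, 27 endoplasmic reticulum chaperone genes, 74 nuclear genes of the respiratory chain, 36 plasma protein genes, 27 genes of male-biased growth hormone targets, 9 mitochondrially encoded genes and 19 genes around malonyl-CoA passed. Of these 341 genes, 38 had an unadjusted p under 0.05, 18 of them in the respiratory chain list (list median 0.19), while DESeq2 called 4 and limma-voom 1. Single genes passed in the lists of bile acids (Abcb11, the bile salt export pump, -0.69 ± 0.16), fatty acid synthesis (Elovl5, -1.12 ± 0.29), PPARα targets (Plin5, 0.91 ± 0.23) and fatty acid oxidation (Etfdh, -0.54 ± 0.15), with edgeR adjusted p from 0.00532 to 0.0327. The bile acid list held 20 tested genes and the other lists 25 each. The shares called were thus 5% and 4%, near the 2.94% of all tested genes. Abcb11 lost its call without ZT18 replicate 4, Plin5 without ZT6 replicate 2, Elovl5 without ZT18 replicate 1 or 4 or ZT6 replicate 1, and Etfdh without any of 6 of the 8 livers. Cyp7a1, the rate-limiting enzyme of bile acid synthesis, had 130, 159, 126 and 113 CPM at ZT18 against 57.6, 85.8, 32.2 and 23.4 CPM at ZT6. The groups did not overlap, yet with a log2 estimate of 1.40 ± 0.44 the gene missed the threshold (edgeR adjusted p = 0.0723). Cyp7a1 passed in 5 of 19 other settings, among them DESeq2 and limma-voom.

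Some calls rested on replicate 1 of ZT6. G6pdx, the entry enzyme of the pentose phosphate pathway, had 34.6 CPM in that liver and 1.39 to 3.95 CPM in the other ZT6 livers, against 1.63 to 3.54 CPM at ZT18. Its change of -2.35 ± 0.58 (edgeR adjusted p = 0.0138) became -0.26 with an adjusted p of 0.898 without that liver. Gstm4, a glutathione transferase, had 119 CPM there and 41.0 to 43.6 CPM in the other ZT6 livers, against 22.7 to 33.0 CPM at ZT18. Its change of -1.14 ± 0.22 (edgeR adjusted p = 0.000514) became -0.57 with an adjusted p of 0.0772 without it. H2-Ab1, at 127 CPM in the same liver, was also called as lower at ZT18 (-1.64 ± 0.42, edgeR adjusted p = 0.0189). The other ZT6 livers held 16.9 to 21.3 CPM of it, against 13.2 to 18.2 CPM at ZT18. The H2-Ab1 call was not followed over the other settings. Leaving out all 3 libraries that stand apart ended 28 calls among the genes followed over the settings. Those already described were Nr1d2, Wee1, Sult1d1, Cyp2a5, Plin5, Elovl5, Ppargc1b, Slc16a12, Ahcy, Dnajb6, Prnp, Arrdc3, G6pdx and Gstm4, and each kept its sign.

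The 5 most abundant genes past the threshold all rose. Hamp, which encodes the iron hormone hepcidin, had 2600, 1852, 1701 and 1546 CPM at ZT18 against 674, 1266, 1135 and 747 CPM at ZT6. The groups did not overlap (1.01 ± 0.27; edgeR adjusted p = 0.0268), but leaving out ZT18 replicate 1, ZT6 replicate 1 or ZT6 replicate 4 gave adjusted p of 0.106 to 0.144. Sord, sorbitol dehydrogenase, had 1308, 1224, 1229 and 1234 CPM at ZT18 against 642, 945, 962 and 909 CPM at ZT6 (0.53 ± 0.12; edgeR adjusted p = 0.00512), and 0.0578 without ZT6 replicate 1. Cyb5a, Igfbp4 and Hsp90ab1 rose by 0.42 to 0.64 on the log2 scale, and each lost its call in several settings that left out a library. Without the 3 libraries that stand apart Hamp, Sord, Cyb5a and Igfbp4 did not pass (adjusted p from 0.103 to 0.226).

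Acsf3, the mitochondrial synthetase that makes malonyl-CoA and that the series was designed around, did not pass between midnight and midday. It had 6.37, 8.85, 11.3 and 10.9 CPM at ZT18 against 12.3, 11.9, 11.2 and 10.9 CPM at ZT6. The groups overlapped, and the log2 difference was -0.30 ± 0.28 (SE; edgeR adjusted p = 0.652), on 110 and 204 UMIs. Over the 8 times in sh-Ctl liver its mean ran from 9.23 ± 2.86 CPM at ZT21 to 12.8 ± 1.65 CPM at ZT12 (SD, n = 4 each). The gene spans chr8:122775486-122817880 (plus strand, GRCm38) and overlaps Gm20388 on the same strand.

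The same contrast in sh-Acsf3 liver, which shares no library with the one above, called 264 genes (2.61%), with 138 higher (1.37%) and 126 lower (1.25%). Of the 297 genes called in sh-Ctl, 292 had the same sign in sh-Acsf3 (98.3%), against 68.1% of the genes not called. In all, 139 genes were called in both, which is 46.8% of the sh-Ctl calls and 52.7% of the sh-Acsf3 calls. The test of the difference between the treatments called 0 genes by edgeR, with 267 at an unadjusted p under 0.05, while DESeq2 called 1 and limma-voom 0. With no filter on low counts edgeR called 58.

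For the clock genes the estimates were as follows. Nr1d1 changed by -4.86 in sh-Acsf3 and -4.51 in sh-Ctl, Cry1 by 2.13 in sh-Acsf3 and 2.26 in sh-Ctl, and Dbp by -1.90 in sh-Acsf3 and -1.88 in sh-Ctl on the log2 scale. Per2 passed in sh-Acsf3 (2.79; edgeR adjusted p = 0.000375) and not in sh-Ctl (1.29; edgeR adjusted p = 0.0692). In sh-Ctl it did pass in 4 of 19 other settings. The difference of 1.51 ± 0.66 (SE) between the treatments did not pass (edgeR unadjusted p = 0.0264, adjusted p = 1). The smallest p for a difference belonged to Ppm1m, a protein phosphatase, with 0.94 in sh-Acsf3 and -0.16 in sh-Ctl (unadjusted p = 0.000988, edgeR adjusted p = 1). Abcg1, a cholesterol exporter, followed, with 0.18 in sh-Acsf3 and -0.88 in sh-Ctl (unadjusted p = 0.00141, edgeR adjusted p = 1). The heat shock list held 6 higher and 1 lower call in sh-Acsf3 and 8 higher and none lower in sh-Ctl.

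**Figure D5:**
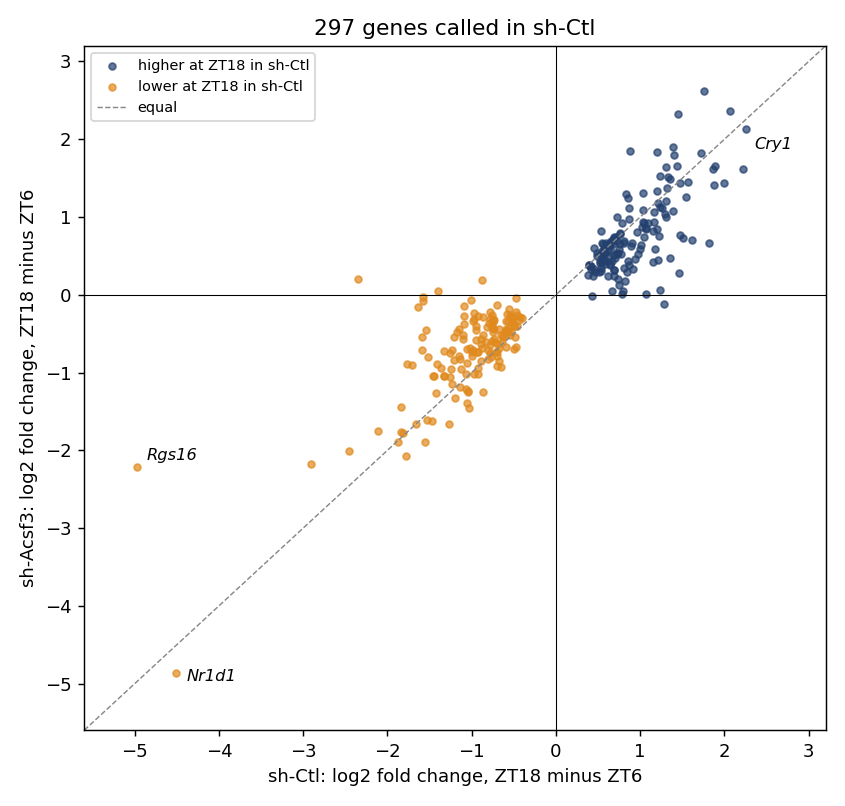
Log2 fold change of ZT18 minus ZT6 in sh-Acsf3 liver (vertical) against that in sh-Ctl liver (horizontal) for the 297 genes called in sh-Ctl. The dashed line marks equal values. Of these genes 292 have the same sign on both axes.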

How the data were processed

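The deposited table holds raw UMI counts per gene, made by the authors with BRB-seq (3′ ends) per the labels' protocols; STAR, GRCm38 and mm10 are named in the submitters' processing notes, and the annotation release and strand setting are not given in the sources used here. The 64 libraries were fitted together with edgeR 4.0.16 in R 4.3.3 (filterByExpr with a minimum count of 10 and total of 15, TMM scaling, 16 group means, robust quasi-likelihood test). SE is the log2 change divided by the square root of F, and CPM are TMM-scaled. The fit left 48 residual degrees of freedom and a common biological coefficient of variation of 0.189. Calls are Benjamini-Hochberg adjusted p under 0.05. The 8 libraries gave 2.2 to 7.3 UMIs per CPM, and no pair of replicates agreed within sampling noise (lowest chi-square per degree of freedom 3.91). Gene positions are from GENCODE M21 and promoter windows from RefSeq, and 68 of 151 named genes overlap another annotated gene.

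Members and lists were chosen with earlier results of these data known. Genes were named by rule: Acsf3, the 12 largest rises and falls (mean of at least 10 CPM, no overlap), every clock gene, the 3 smallest p of each list, every first-step enzyme, the 5 most abundant calls and the 5 smallest p for the difference between treatments. Other called list members, Hspa1b and genes with a motif were named after their values were seen. Alternatives were RLE scaling, library size alone, other filters, DESeq2 1.42.0, limma 3.58.1 (voom), a replicate block, smaller fits and libraries left out. Leaving out the 3 libraries that stand apart, and the heat shock motif, were added after the data were seen. The method was tested on simulated data, with changes put into genes of at least 10 CPM. It recovered 44% of 1.5-fold and 92% of 2-fold changes, so many smaller changes would be missed. Some genes that the rule names are not reported here.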

Additional observations from a re-analysis of the deposited data

Results flagged for a closer look

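Within groups of 4 livers, a liver was marked where its gap to the nearest other liver exceeded Dixon's critical share of the group's range. Of 186 groups tested, 15 (8.06%) held such a liver, and chance flags about 1 in 20 groups. No explanation was tested for any of them.

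Replicate 1 of ZT6 accounted for 6 of the 15. In that liver Elovl5 was at 245 CPM against 141 to 148 CPM in the other ZT6 livers, G6pdx at 34.6 CPM against 1.39 to 3.95 CPM, and Gstm4 at 119 CPM against 41.0 to 43.6 CPM. Bhlhe40 was at 95.4 CPM there against 61.4 to 64.4 CPM. Sord was low at 642 CPM against 909 to 962 CPM, and the summed macrophage markers were high at 581 CPM against 256 to 283 CPM.

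At ZT18, replicate 1 was low in Amdhd1 (59.1 CPM against 87.6 to 92.9 CPM) and high in Sord (1308 CPM against 1224 to 1234 CPM) and in summed pancreas genes (35.0 CPM against 11.8 to 15.6 CPM). Replicate 4 of ZT18 was low in Ppp1r3b (83.1 CPM against 140 to 143 CPM) and in Cbs (47.4 CPM against 68.4 to 69.6 CPM). Replicate 2 of ZT18 was low in Odc1, at 15.6 CPM against 20.5 to 21.2 CPM. Replicate 3 of ZT18 was high in Bhlhe40, at 130 CPM against 56.1 to 68.7 CPM. Replicate 3 of ZT6 held 897 CPM of pancreas genes against 11.4 to 15.3 CPM, and replicate 4 of ZT6 was low in Gpt2, at 127 CPM against 179 to 189 CPM.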

How the results depend on the processing

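The count of 297 genes stayed within 1.5 times under 7 of the settings that kept all 8 livers, and was 551 with no filter on low counts and 127 with the 8 livers fitted alone. Leaving out 1 liver gave 168 (without ZT18 replicate 4) to 385 (without ZT18 replicate 2), with 173 without ZT18 replicate 1 and 190 without ZT6 replicate 4. The count of genes changed at least 2-fold, 121, was 242 with no filter and 65 with the 8 livers alone, and 81 to 166 with 1 liver left out. The difference between treatments gave 58 genes with no filter and 1 by DESeq2. Of 62 named genes past the threshold, 27 passed in every setting, and none reversed. Among the named genes that did not pass, 35 passed in at least 1 other setting. The replicate block gave 352 genes. Deviations of same-numbered livers correlated at -0.13 to 0.19, and those of livers with other numbers at -0.26 to 0.25. These few values cannot tell whether the numbers pair the livers. Acsf3 lay between -0.46 and -0.17 in every setting.

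Among genes that did not pass, signs turned as follows (log2). Without the 3 libraries that stand apart Npas2 was -1.003, Rora -0.16, Cry2 -0.18, Saa3 -0.17, Acaca 0.57 and Sqle 0.28. By library size alone Rora was -0.0495, Bhlhe40 -0.0144, the periportal marker sum -0.0113 and the endothelial sum -0.12, and with RLE scaling the hepatocyte sum was 0.0098. By limma-voom Acaca was 0.0647 and Sqle 0.0943, and under the block Sqle was 0.0268. With 1 liver left out the ranges were -0.38 to 1.34 for Npas2, -0.0594 to 0.22 for Rora, -0.20 to 0.34 for Bhlhe40, -0.37 to 3.92 for Saa3, -0.24 to 1.28 for Fasn, -1.24 to 0.0055 for Pck1, -0.29 to 0.61 for Acaca and -0.36 to 0.63 for Sqle. For marker sums they were -0.0652 to 0.11 for hepatocytes, -0.33 to 0.16 for macrophages, -0.0182 to 0.061 for endothelium, -0.26 to 0.12 for cholangiocytes, -1.62 to 0.48 for pancreas and -0.10 to 0.73 for red cells. The cause was not tested. Genes near 1 CPM rest on few UMIs, so smaller changes in them were not detectable at this depth.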

Other observations

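Of 24 autophagy and lysosome genes, 2 rose and 2 fell at ZT18 (16.7% called, against 2.94% of all tested genes). This count of 4 fell as low as 0 over the other settings, and as low as 1 with a single liver left out. Gabarapl1, a member of the ATG8 family, fell by 0.97 ± 0.22 on the log2 scale (edgeR adjusted p = 0.00403), and the cargo receptor gene Sqstm1 fell by 0.43 ± 0.11 (edgeR adjusted p = 0.0149). Bnip3, a mitophagy receptor, rose by 0.54 ± 0.14, and Mcoln1, a lysosomal channel, rose by 1.21 ± 0.36 (edgeR adjusted p = 0.0168 and 0.0457). Of 31 genes of tRNA charging and the integrated stress response, 2 fell (6.45%, against 2.94% of all tested genes called) and none rose. They were Trib3 and Atf5, and Atf5 changed by -1.14 ± 0.29 (edgeR adjusted p = 0.0174). Without the 3 libraries that stand apart Sqstm1, Bnip3, Mcoln1 and Atf5 did not pass. Counting that setting, Mcoln1 missed the threshold in 12 of 17 other settings and Bnip3 in 6 of 19. Atf5 missed it in 5 of 19, Sqstm1 in 4 of 19 and Gabarapl1 in 1 of 19. Mcoln1, Bnip3, Atf5 and Sqstm1 each also missed it without at least 1 single liver.

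Gclc, which sets the rate of glutathione synthesis, averaged 155 CPM at ZT18 and 294 CPM at ZT6 (-0.93 ± 0.25; edgeR adjusted p = 0.0231), and Psma1, a proteasome subunit, averaged 59.0 CPM at ZT18 and 86.6 CPM at ZT6 (-0.55 ± 0.12; edgeR adjusted p = 0.00232). In the secretory pathway Srprb and Lman1 rose by 0.65 ± 0.18 and 0.38 ± 0.11 among 44 tested genes (edgeR adjusted p = 0.0317 and 0.0439). These 2 calls are 4.55% of that list, near the 2.94% of all tested genes. The sugar kinase gene Tkfc averaged 355 CPM at ZT18 and 196 CPM at ZT6 (0.85 ± 0.25; edgeR adjusted p = 0.0432). Gclc, Psma1, Srprb and Tkfc did not pass without the 3 libraries that stand apart. Lman1 passed there but missed the threshold without any one of 6 of the 8 livers, at edgeR adjusted p of 0.0757 to 0.177. Srprb and Tkfc likewise missed it without any one of 6 of the 8 livers, at edgeR adjusted p up to 0.164 and 0.134. Gclc missed it without ZT18 replicate 3 or 4 or ZT6 replicate 1 or 4, at edgeR adjusted p of 0.0656 to 0.101.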
